A study of Mus musculus with 12 samples.

Results

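The C/EBP family (CCAAT/enhancer-binding proteins) was examined in mouse granulocyte-monocyte progenitors (GMP) through 6 genes, Cebpa, Cebpb, Cebpd, Cebpe, Cebpg and Cebpz. Members were taken by the gene name of the probe in the scanner files, which gave 6 probes, 1 for each gene, out of 39429 probes on the array. All 6 genes had signal in every sample: each probe was well above background on all 12 arrays, 72 of 72 spots, so no member was lost to a filter on dim probes.

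The study asked which genes depend on the transcription factor RUNX1 in GMP, the bone marrow cells that give rise to neutrophils and monocytes. RNA of sorted GMP was labelled with the dye Cy3 and hybridised to 12 single-colour arrays in 4 groups. The RUNX1-ERt2 and ERt2 groups (n = 2 each) began as Runx1fl/fl-Tg(vav-Cre) bone marrow, collected on day 3 after 5-fluorouracil (150 mg/kg), a drug that kills dividing cells, and infected with a MIG retrovirus. That virus carried GFP with RUNX1-ERt2, in which RUNX1 is joined to a domain that responds to tamoxifen, or GFP with this ERt2 domain alone. Lethally irradiated mice received the infected cells and, 6 weeks on, tamoxifen (49.5 µg/g) for 3 consecutive days, and their viable GFP+ GMP were sorted 24 h later. Tamoxifen stands in the label of each of the 4 transplanted samples, although the protocol gives it to only some mice. The ko group (n = 4) held GMP of Runx1fl/fl-Tg(vav-Cre) mice, titled Runx1Δ/Δ, and the wt group (n = 4) held GMP of Runx1+/+-Tg(vav-Cre) mice, both without virus, transplantation or tamoxifen. All 4 groups thus carry vav-Cre, a Cre transgene active across blood cells, and all but wt carry floxed Runx1. RUNX1-ERt2 is a viral product added to these deleted cells, not the restored gene. The labels do not say whether samples of a group came from separate animals, so a p-value here weighs only the spread among these samples, which may be technical.

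C/EBP proteins other than the Cebpz product bind DNA as dimers through a basic leucine zipper, and they pair with each other and with related zipper proteins. In the bone marrow C/EBPa is known for the step by which myeloid progenitors become GMP, C/EBPb for granulocyte production under infection and cytokine demand, and C/EBPe for the late maturation of granulocytes with their specific granules. C/EBPd is an acute-phase factor that is also found in maturing neutrophils, and C/EBPg lacks an activation domain and acts mainly as a dimer partner. The Cebpz product shares the CCAAT name but belongs to another protein family, whose yeast relatives take part in ribosome assembly.

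The level of each gene rests on a single probe of 60 bases, so the probes are shown with their places in the mouse genome (build mm9, from the files). The probe of Cebpa lay at chr7:35906517-35906576 (+), that of Cebpb at chr2:167515828-167515887 (+), that of Cebpd at chr16:15888459-15888518 (+) and that of Cebpe at chr14:55329200-55329259 (−), and for these only the opening stretch is printed. The probe of Cebpg lay at chr7:35835477-35835536 (−). The probe of Cebpz spanned chr17:79320086-79320999 (−), a stretch of 914 bases, and thus joined sequence on both sides of an intron. Cebpg and Cebpz are printed whole, all 5′ to 3′ and in lower case throughout, because no part of a probe is singled out.
Cebpa: ttttgttttggttttgctctgattcttgcc
Cebpb: agaggcgtatgtatattttgagaacctttt
Cebpd: gacatttccgacagacttttgtagataaga
Cebpe: attgggaaggtcgggaccaaatgattctgt
Cebpg: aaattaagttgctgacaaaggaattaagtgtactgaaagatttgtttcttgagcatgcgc
Cebpz: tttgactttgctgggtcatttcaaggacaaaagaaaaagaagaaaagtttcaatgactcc

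RefSeq promoters (GRCm38.p6) matched 3 of the 6 genes, Cebpa, Cebpb and Cebpg, and not Cebpd, Cebpe or Cebpz. The 250 bases before the start are shown for Cebpa (chr7:35119043-35119292, +), the member that fell in ko GMP, and for Cebpb (chr2:167688665-167688914, +), a member that fell in RUNX1-ERt2 GMP. Capitals mark TTGCG, a C/EBP core read on either strand, in Cebpa and TGACG or its other strand CGTCA, a core of the cyclic-AMP response element, in Cebpb.
Cebpa: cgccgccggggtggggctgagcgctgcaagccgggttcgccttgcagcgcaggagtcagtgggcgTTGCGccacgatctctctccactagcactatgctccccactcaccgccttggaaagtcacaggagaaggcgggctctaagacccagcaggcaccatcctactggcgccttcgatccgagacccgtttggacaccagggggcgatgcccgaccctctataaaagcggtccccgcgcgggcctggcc
Cebpb: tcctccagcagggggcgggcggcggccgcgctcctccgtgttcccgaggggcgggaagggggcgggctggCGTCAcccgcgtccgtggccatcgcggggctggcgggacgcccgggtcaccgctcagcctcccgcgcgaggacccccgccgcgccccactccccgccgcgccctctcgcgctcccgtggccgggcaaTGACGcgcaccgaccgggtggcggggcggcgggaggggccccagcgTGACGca
Counted in bases from the start, the core TTGCG of Cebpa began at −185 and TATAAA at −30. The cores in Cebpb began at −180, −53 and −7. The letters TGTGGT for RUNX factors, TTGCNNAA for C/EBP dimers and GAGGAA for ETS factors, each searched on both strands, matched in none of the 3 windows, the Cebpg window included. They matched in 14.0%, 9.56% and 23.3% of all 32851 promoter windows of that length. TTGCG occurred in 14.5% of these windows, TGACG in 17.8% and TATAAA in 12.4%. The Cebpg window (chr7:35056567-35056816, −) held CCAAT on its other strand at −89 and −28, as letters that 33.8% of windows hold. These 4 cores and boxes were picked after the sequences were seen, and a match is a string of letters, not a binding site.

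A level is the log2 spot intensity minus the 75th percentile of its array, so a level of 0 equals that percentile, and a difference is on the same log2 scale with its SE from limma. Adjusted p-values were computed over all 17905 genes that were well above background throughout some group, and a gene counts as changed below 0.05. The wt and ko replicates 1 and 2 shared slide 1 and replicates 3 and 4 shared slide 2, so ko against wt is also given within each slide. ERt2 lay on slide 3 and RUNX1-ERt2 on slide 4, each alone, so slide and group cannot be told apart there. The transplanted arrays were dimmer, with median signals of 43.1 to 59.7 against 65.4 to 98.6 on the native ones, and the number of arrays limits the precision. GMP markers, 8 of 8 tested, were well above background on every array. The Runx1 probe measured 2.87 to 4.20 in ko and 1.18 to 2.23 in wt, a difference of 1.69 ± 0.17 (adjusted p = 0.00025), and the labels do not say which part is deleted, so it does not check the deletion. In RUNX1-ERt2 GMP it measured 1.92 to 2.33, against 3.14 to 3.29 in ERt2 GMP.

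In ko GMP, Cebpa was the member that fell (1.90-fold), while no other member passed the test. Of the 6 members, 1 changed in ko against wt, against 25.3% of all genes in either direction, 13.8% lower and 11.5% higher. RUNX1-ERt2 against ERt2 gave another picture, in which Cebpb and Cebpd fell, Cebpg and Cebpz rose, and Cebpa did not pass. There 4 of 6 members changed, against 19.1% of all genes, but only Cebpz passed without each of the 4 arrays in turn. The plot of levels shows each member on each array.

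**Figure D1:**
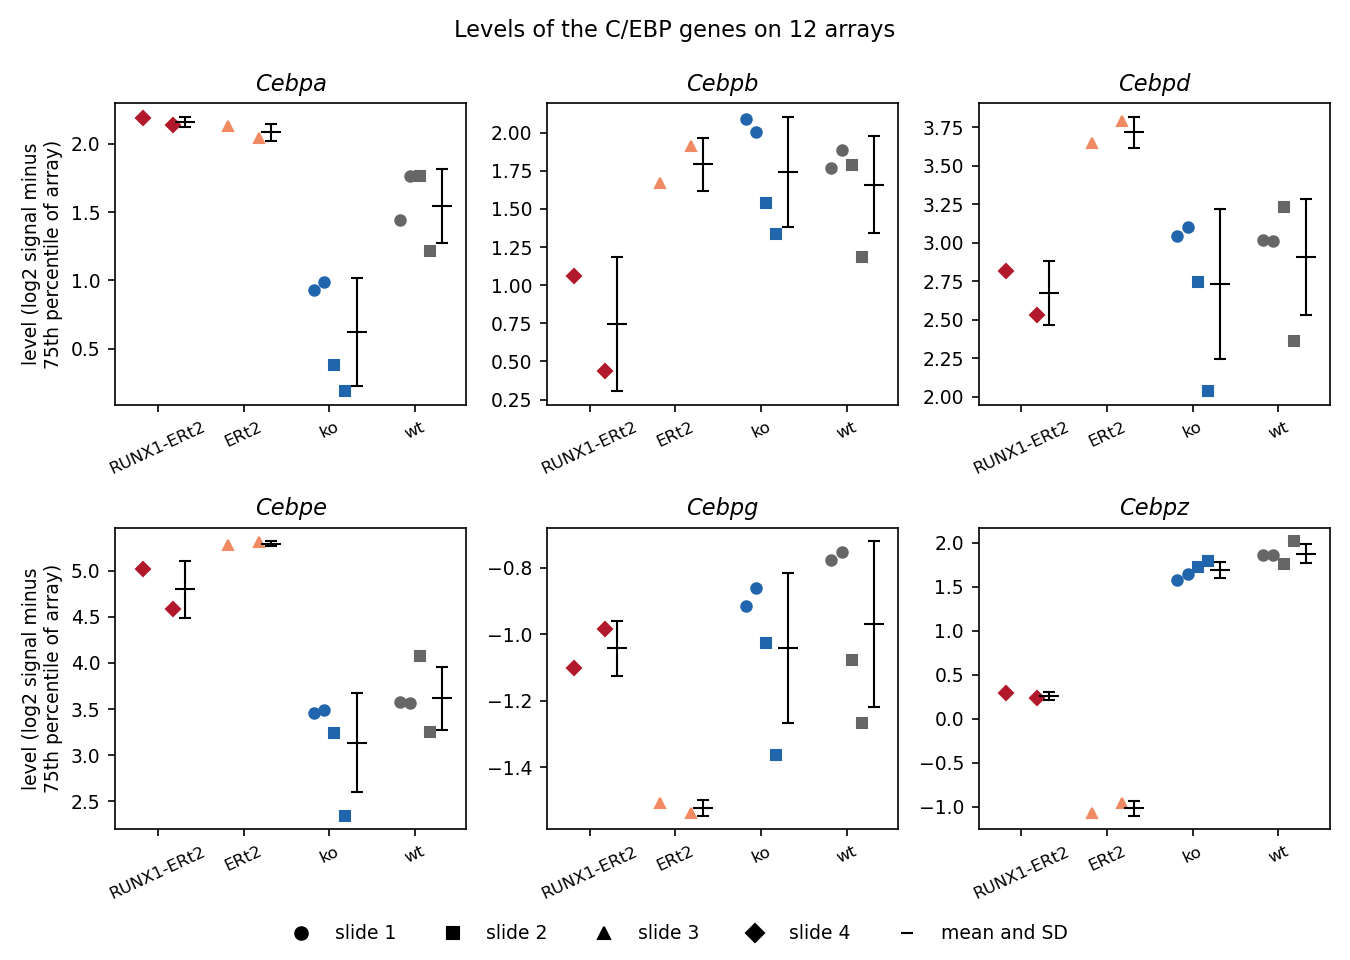
Levels of the 6 C/EBP genes (y axis, log2 signal minus the 75th percentile of the array) on 12 arrays in the RUNX1-ERt2, ERt2, ko and wt groups (x axis), with marker shapes for slides 1 to 4 and bars for mean and SD. For Cebpa the 4 ko arrays lie between 0.19 and 0.99, all below the wt arrays at 1.21 to 1.76, and for Cebpz the ERt2 arrays at −1.08 and −0.96 lie below all others.

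Cebpa encodes the factor that GMP formation requires. Its level was 0.93, 0.99, 0.38 and 0.19 on the ko arrays and 1.44, 1.76, 1.76 and 1.21 on the wt arrays. All 4 ko arrays lay below all 4 wt arrays, and 23.3% of all genes had groups that stood apart in either direction. The level averaged 0.62 ± 0.40 in ko and 1.54 ± 0.27 in wt (SD, n = 4 each). The difference was −0.92 ± 0.16 (limma adjusted p = 0.00369), which is 1.90-fold lower in ko, and the exact permutation test gave an unadjusted p = 0.0286, two-sided, in 1 of 6 such tests, the smallest that 4 against 4 allows. Within slide 1 the difference was −0.64 and within slide 2 −1.20. It passed without any 1 of the 8 arrays (adjusted p of 0.00355 to 0.0146). On slide 2 alone, with 2 arrays a group, it did not pass (adjusted p = 0.126).

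In the transplanted groups Cebpa stood at 2.19 and 2.14 with RUNX1-ERt2 and at 2.13 and 2.04 with ERt2. The difference of 0.08 ± 0.22 did not pass (adjusted p = 0.863), and its 95% interval ran from −0.42 to 0.58. Both pairs of arrays lay above every native array. Set against native cells, Cebpa was higher in ERt2 than in ko by 1.46 ± 0.19 (adjusted p = 0.000228), 2.76-fold, and higher in RUNX1-ERt2 than in wt by 0.62 ± 0.19 (adjusted p = 0.0267), 1.53-fold. The last of these was kept only without wt replicate 3 and ended without each of the other arrays, with the highest adjusted p of 0.118 without RUNX1-ERt2 replicate 1, and it passed under 7 of 10 other settings. The order of group levels was RUNX1-ERt2, ERt2, wt and ko, and each group stood clear of the next in range. The lowest RUNX1-ERt2 array (2.135) lay barely above the highest ERt2 array (2.128), and 58.9% of all genes stood apart in that comparison. Whether RUNX1 presence had another effect in transplanted than in native cells was tested as RUNX1-ERt2 minus ERt2, less wt minus ko. For Cebpa this gave −0.85 ± 0.27 (adjusted p = 0.0610), which did not pass.

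Some lists of cell type markers differed between ko and wt. The summed signal of 7 megakaryocyte markers, scaled to the 75th percentile of the array, was 37.7 to 58.6 on ko arrays and 8.29 to 14.3 on wt arrays. The 8 GMP markers summed to 335 to 486 on ko arrays and 545 to 782 on wt arrays, and 5 of 6 stem and early progenitor markers were tested and summed to 9.06 to 13.8 in ko and 3.99 to 5.01 in wt. Among single markers, 4 of 7 megakaryocyte genes were higher in ko and 0 lower, and 2 GMP genes were higher and 3 lower. Of the 5 stem and early progenitor genes, 2 were higher and 1 lower. Sums overlapped for late neutrophil markers (21.4 to 271 in ko, 50.1 to 276 in wt) and erythroid markers (25.6 to 74.1 in ko, 27.1 to 55.3 in wt). The 7 eosinophil, basophil and mast cell markers had 1 gene higher and 4 lower, while their sums were 39.7 to 73.6 in ko and 25.8 to 54.1 in wt. Of 7 monocyte and macrophage markers 4 were tested, with 0 higher and 2 lower and sums of 5.53 to 17.4 in ko and 12 to 20.7 in wt. Stroma and endothelium markers, 3 of 5 tested, summed to 0.465 to 0.799 in ko and 0.859 to 1.29 in wt. B and T cell markers, 6 of 8 tested, summed to 4.93 to 6.48 in ko and 6.32 to 6.59 in wt. Each of these 2 lists had 0 genes higher and 1 lower. The part of cell makeup in the Cebpa result was not tested, and in RNA of a sorted population fewer cells of a type and less RNA per cell cannot be told apart.

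Cebpb, a factor of demand-driven granulopoiesis, fell in RUNX1-ERt2 GMP and did not pass in ko GMP. Its level was 1.06 and 0.44 with RUNX1-ERt2 and 1.67 and 1.92 with ERt2. The arrays of these groups did not overlap, as was so for all 6 members and for 58.9% of all genes. The difference was −1.05 ± 0.24 (adjusted p = 0.0156), 2.07-fold lower with RUNX1-ERt2. It did not pass without RUNX1-ERt2 replicate 2 (−0.74, adjusted p = 0.102) or without ERt2 replicate 2 (−0.93, adjusted p = 0.0898), nor without the slide term (0.0539) or in a fit of these 4 arrays alone (0.0932). RUNX1-ERt2 was also below wt, at −0.91 ± 0.21 (adjusted p = 0.00667), 1.88-fold lower. This call ended without RUNX1-ERt2 replicate 2 (adjusted p = 0.0765). The summed levels of several marker lists were lower with RUNX1-ERt2 too. The monocyte markers summed to 3.40 to 6.39 with RUNX1-ERt2 and 22.7 to 26.4 with ERt2 (3 of 4 lower), and the GMP markers to 414 to 582 and 848 to 959 (5 of 8 lower). Late neutrophil markers summed to 117 to 132 and 511 to 614 (0 of 9 called). Eosinophil, basophil and mast cell markers summed to 39.9 to 47.7 and 76.1 to 81.3 (2 of 7 higher, 2 lower), and B and T cell markers to 6.54 to 6.70 and 9.12 to 10.2 (1 of 6 higher, 1 lower). Stroma and endothelium markers went the other way, 1.24 to 1.36 and 0.974 to 1.06 (0 of 3 called), and the sums of the stem, erythroid and megakaryocyte lists overlapped. The part of these lists in the falls of Cebpb and Cebpd was not tested.

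In native cells Cebpb stood at 2.09, 2.00, 1.54 and 1.34 in ko and at 1.77, 1.89, 1.79 and 1.19 in wt. The groups overlapped, and the difference of 0.09 ± 0.17 (adjusted p = 0.755) had a 95% interval of −0.30 to 0.47. ERt2 and ko arrays overlapped too, at 0.05 ± 0.21 (adjusted p = 0.852). ERt2, ko and wt were thus neighbours that overlapped in range, and the RUNX1-ERt2 arrays lay below all others. The test of RUNX1 presence between transplanted and native cells gave −0.96 ± 0.30 (adjusted p = 0.0530).

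Cebpd, the acute-phase member, measured 2.82 and 2.53 with RUNX1-ERt2 and 3.65 and 3.79 with ERt2. It was 2.06-fold lower with RUNX1-ERt2 (−1.05 ± 0.31, adjusted p = 0.0428). This call passed under 5 of 10 other settings and ended without any 1 of the 4 arrays (adjusted p of 0.0855 to 0.188, the highest without RUNX1-ERt2 replicate 2). Native levels were 3.04, 3.10, 2.75 and 2.04 in ko and 3.02, 3.01, 3.23 and 2.36 in wt. These overlapped, with a difference of −0.17 ± 0.22 (adjusted p = 0.602) and a 95% interval of −0.66 to 0.32. ERt2 stood above ko by 0.99 ± 0.27 (adjusted p = 0.0113), 1.98-fold, and without ERt2 replicate 2 that call ended (adjusted p = 0.0745). RUNX1-ERt2 differed from wt by −0.23 ± 0.27 (adjusted p = 0.503). Only the ERt2 arrays stood clear of the other groups. The test of RUNX1 presence between transplanted and native cells gave −1.22 ± 0.38 (adjusted p = 0.0533). It passed under 2 of 9 other settings, the replicate block (adjusted p = 0.0203) among them.

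Cebpe, the factor of late granulocyte maturation, was higher in both transplanted groups than in native cells. Its level was 5.01 and 4.58 with RUNX1-ERt2, 5.27 and 5.31 with ERt2, 3.46, 3.49, 3.24 and 2.35 in ko, and 3.58, 3.57, 4.07 and 3.25 in wt. The ko and wt ranges overlapped, and both lay below every transplanted array. ERt2 exceeded ko by 2.16 ± 0.31 (adjusted p = 0.000413), 4.46-fold, and RUNX1-ERt2 exceeded wt by 1.18 ± 0.31 (adjusted p = 0.0134), 2.27-fold. The second of these ended without RUNX1-ERt2 replicate 1 (0.96, adjusted p = 0.107).

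Neither RUNX1 comparison of Cebpe passed. The difference was −0.48 ± 0.26 in ko against wt (adjusted p = 0.204), with a 95% interval of −1.06 to 0.10 and an exact permutation p of 0.143. It came to −0.10 on slide 1 and −0.87 on slide 2. With RUNX1-ERt2 against ERt2 it was −0.49 ± 0.36 (adjusted p = 0.404), with an interval of −1.31 to 0.32. The 9 markers of late neutrophils had their highest sums with ERt2: 117 to 132 with RUNX1-ERt2, 511 to 614 with ERt2, 21.4 to 271 in ko and 50.1 to 276 in wt. As single genes, 0 of the 9 markers passed in RUNX1-ERt2 against ERt2, while in ERt2 against ko 5 were higher and 0 lower. Their part in the levels of Cebpe was not tested.

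Cebpg, the dimer partner without an activation domain, had the smallest spread across groups of the 6 members. Its level was −1.10 and −0.98 with RUNX1-ERt2 and −1.51 and −1.54 with ERt2. It rose with RUNX1-ERt2 by 0.48 ± 0.13 (adjusted p = 0.0309), 1.40-fold, and this call ended without any 1 of the 4 arrays (adjusted p of 0.0695 to 0.146, the highest without RUNX1-ERt2 replicate 2). It passed under 3 of 10 other settings, and not under quantile scaling (0.0579), array-median scaling (0.203) or the normexp background (0.177). In native cells it measured −0.92, −0.86, −1.02 and −1.36 in ko and −0.78, −0.75, −1.08 and −1.27 in wt. The groups overlapped and the difference was −0.07 ± 0.09 (adjusted p = 0.604; 95% interval −0.28 to 0.13).

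The ERt2 arrays of Cebpg lay below every other array. ERt2 was below ko, at −0.48 ± 0.11 (adjusted p = 0.00559), 1.40-fold lower. This call held without each of the 6 arrays in turn but ended with the array median as the scale (−0.29, adjusted p = 0.168). RUNX1-ERt2 differed from wt by −0.07 ± 0.11 (adjusted p = 0.625). RUNX1-ERt2, ko and wt overlapped in range. The test of RUNX1 presence between transplanted and native cells gave 0.41 ± 0.16 (adjusted p = 0.111) for Cebpg and −0.98 ± 0.44 (adjusted p = 0.164) for Cebpe.

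Cebpz, the member outside the zipper family, had the largest difference between the transplanted groups among the 6 members. Its level was 0.29 and 0.23 with RUNX1-ERt2 and −1.08 and −0.96 with ERt2. In native cells it was 1.58, 1.65, 1.73 and 1.79 in ko and 1.86, 1.85, 1.76 and 2.01 in wt. Replicates lay close together, and both transplanted groups lay below all native arrays. Cebpz was higher with RUNX1-ERt2 than with ERt2 by 1.28 ± 0.11 (adjusted p = 8.9e-05), 2.43-fold. It was 6.52-fold lower in ERt2 than in ko (−2.71 ± 0.10, adjusted p = 4.1e-08) and 3.06-fold lower in RUNX1-ERt2 than in wt (−1.61 ± 0.10, adjusted p = 2.6e-06). These 3 calls passed under each other setting tried and without each array in turn.

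In ko against wt, Cebpz differed by −0.19 ± 0.08 (adjusted p = 0.117), with a 95% interval of −0.37 to −0.01. The arrays overlapped, and the exact permutation p was 0.0571. It passed without wt replicate 3 (−0.25, adjusted p = 0.0414), in 1 of 8 fits that left out an array, and under 0 of 12 other settings. The effect of RUNX1 presence differed between transplanted and native cells by 1.09 ± 0.14 (adjusted p = 0.000962), the only 1 of 6 members past this test, against 18.2% of all genes, 9.42% upwards as here and 8.75% downwards. Cebpzos, the gene that overlaps Cebpz on the other strand and was named outside the rule for named genes, differed by 0.17 ± 0.10 with RUNX1-ERt2 against ERt2 (adjusted p = 0.286) and by −0.05 ± 0.08 in ERt2 against ko (adjusted p = 0.636).

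**Figure D2:**
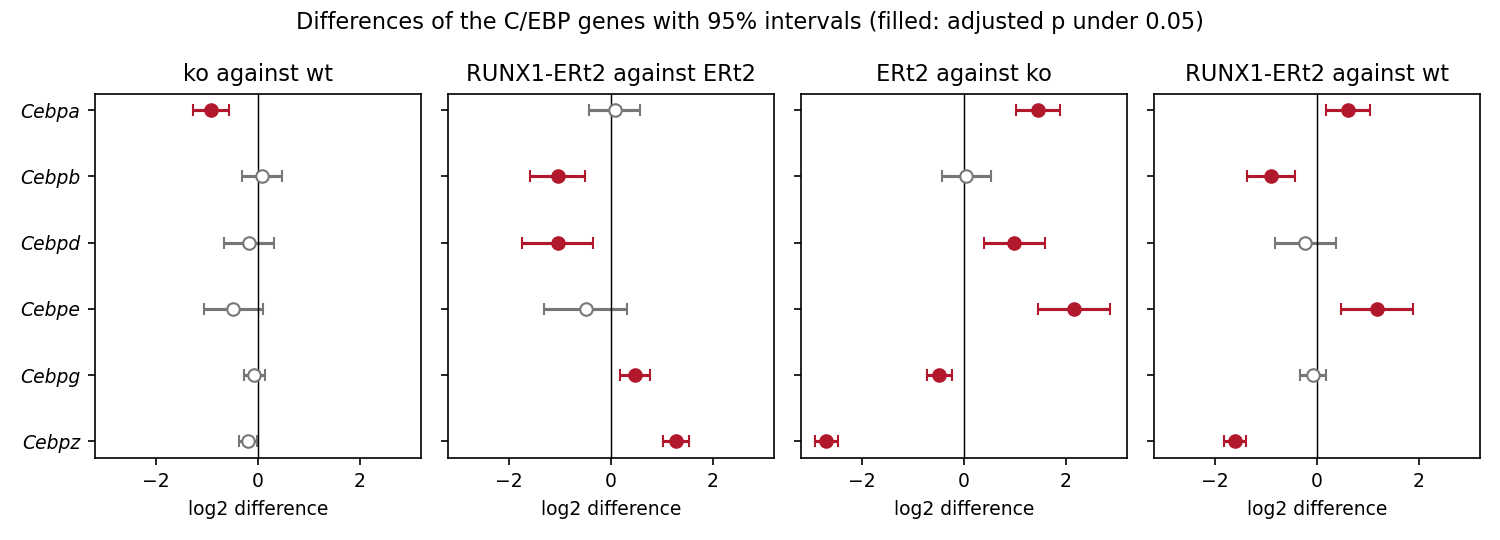
Log2 differences of the 6 C/EBP genes (x axis) with 95% intervals in 4 comparisons, filled where the adjusted p was under 0.05. Only Cebpa, at −0.92, is filled in ko against wt, and Cebpz stands at 1.28 in RUNX1-ERt2 against ERt2 and at −2.71 in ERt2 against ko.

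The transplanted groups were also set against native cells, ERt2 against ko with Runx1 deleted in both, and RUNX1-ERt2 against wt. In ERt2 against ko, 5 of 6 members changed, against 56.9% of all genes. Cebpa, Cebpd and Cebpe were higher, as were 30.2% of all genes, and Cebpg and Cebpz were lower, as were 26.7%. In RUNX1-ERt2 against wt, 4 of 6 changed, against 46.1% of all genes. Cebpa and Cebpe were higher, as were 21.9% of all genes, and Cebpb and Cebpz were lower, as were 24.1%. Arrays did not overlap for 5 members in the first of these, against 63% of all genes, and for 4 members in the second, against 55.9%. These comparisons share the ko, ERt2, RUNX1-ERt2 or wt arrays with those above, so their values stand side by side only. Transplantation, 5-fluorouracil, virus, tamoxifen and slide differ together here and cannot be told apart. Erythroid markers, 7 of 8 tested, summed to 116 to 146 with RUNX1-ERt2, 80.8 to 148 with ERt2, 25.6 to 74.1 in ko and 27.1 to 55.3 in wt. Of these 7 genes, 2 were higher in ERt2 against ko and 3 in RUNX1-ERt2 against wt, with 0 lower. In ERt2 against ko, 6 of 8 GMP and 5 of 9 late neutrophil genes were higher with 0 lower. There 3 of 5 stem and early progenitor and 3 of 7 megakaryocyte genes were lower with 0 higher. In RUNX1-ERt2 against wt, 4 of 4 monocyte and macrophage genes and 3 of 5 stem and early progenitor genes were lower with 0 higher. The part of these lists in the differences was not tested.

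Genes known as targets of C/EBPa in granulocytes and monocytes were tested as a list of 14. In ko GMP 3 fell and 1 rose, where 13.8% and 11.5% of all genes did, with a median difference of −0.58 against −0.05 over all genes, and −0.41 and −0.65 on the slides. The falls were Ms4a3, a GMP membrane protein gene (−1.56), Ctsg, cathepsin G of primary granules (−0.74), and Mpo, myeloperoxidase (−0.44). Csf2rb, a cytokine receptor chain, rose (0.89). With RUNX1-ERt2 against ERt2, 9 of 14 fell and 0 rose, with a median of −1.28 against −0.00016 over all genes, of which 8.87% fell and 10.2% rose. Csf1r, Elane, Lyz2 and Gfi1 are given below. The others that fell were Anxa1 (−2.03), Il6ra (−1.50), Ctsg (−1.41), Csf2ra (−1.16) and Csf2rb (−0.86).

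The largest of these falls was Csf1r, the M-CSF receptor gene. It averaged 2.10 ± 0.67 with RUNX1-ERt2 and 4.54 ± 0.14 with ERt2 (SD, n = 2 each), a difference of −2.44 ± 0.42 (adjusted p = 0.00352). Elane, neutrophil elastase, averaged 4.65 ± 0.83 with RUNX1-ERt2 and 7.03 ± 0.11 with ERt2, and differed by −2.38 ± 0.52 (adjusted p = 0.0123). Lyz2, lysozyme, averaged 0.51 ± 0.44 with RUNX1-ERt2 and 2.81 ± 0.83 with ERt2, and differed by −2.30 ± 0.51 (adjusted p = 0.0123). Csf1r passed without each array in turn. The call of Elane was kept only without RUNX1-ERt2 replicate 1 (highest adjusted p = 0.0860, without RUNX1-ERt2 replicate 2), and that of Lyz2 ended without ERt2 replicate 1 (adjusted p = 0.0839) or RUNX1-ERt2 replicate 2.

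In ko against wt, Csf1r differed by −0.55 ± 0.29 (adjusted p = 0.208), Elane by −1.14 ± 0.37 (adjusted p = 0.0505) and Lyz2 by 0.48 ± 0.36 (adjusted p = 0.368). Elane passed when the replicate number was blocked (adjusted p = 0.0173). It did not pass under array-median scaling (0.0885), the normexp background (0.116) or without the slide term (0.0531). Elane, Mpo, Prtn3 and Ctsg also stand on the GMP marker list and Csf1r on the monocyte list. The summed levels of both lists are given above, and their part in the falls of these targets was not tested. In ERt2 against ko 13 of the 14 targets rose, against 30.2% of all genes, with a median of 1.49 against 0.06. In RUNX1-ERt2 against wt 2 rose and 4 fell, where 21.9% and 24.1% of all genes did, with a median of −0.32 against 0.00443.

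Specific granule genes, known as targets of C/EBPe, were listed together with Ncf1, a NADPH oxidase subunit gene. This list was tested for 13 of 15 names. Chi3l3 is the old symbol of Chil3, which was tested, and Bpi was below the filter. In ko GMP only Ncf1 fell (−1.20), as 1 of 13 against 13.8% of all genes, and 0 rose. The list median of −0.43 was −1.19 on slide 1 and 0.64 on slide 2. Fcnb, ficolin B, differed by −1.72 ± 0.62 in ko against wt (adjusted p = 0.0746) and passed once the replicate number was blocked (adjusted p = 0.0323). It did not pass under array-median scaling (0.102), the normexp background (0.0764) or without the slide term (0.0803). With RUNX1-ERt2 against ERt2, 3 of 13 fell, against 8.87% of all genes, with a list median of −2.56. Fcnb averaged −2.91 ± 0.17 with RUNX1-ERt2 and 1.57 ± 0.17 with ERt2, a difference of −4.48 ± 0.88 (adjusted p = 0.00753). Pglyrp1, a peptidoglycan-binding granule protein gene, differed by −3.14 ± 0.51 (adjusted p = 0.00287). Both passed without each array in turn, whereas Chil3 (−4.15 ± 1.14, adjusted p = 0.0325) failed without each of the 4 in turn (highest 0.136, without ERt2 replicate 1).

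In ERt2 against ko 11 of 13 genes of the specific granule list rose, against 30.2% of all genes, with a median of 3.93 against 0.06. In RUNX1-ERt2 against wt 1 of 13, Ncf1, rose and 0 fell, against 21.9% and 24.1% of all genes, with a median of 0.77 against 0.00443. Ltf, Camp, Ngp, Mmp8 and Mmp9 are on the late neutrophil list as well, whose summed levels are given above.

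Dimer partners and other zipper factors were tested for 17 of 18 genes. In ko GMP 3 rose and 2 fell, where 11.5% and 13.8% of all genes did, with a median of 0.49 against −0.05. With RUNX1-ERt2 against ERt2 0 rose and 3 fell, where 10.2% and 8.87% of all genes did, with a median of −0.08 against −0.00016. Batf2, a small AP-1 factor gene, averaged −0.57 ± 0.18 in ko and −2.52 ± 0.15 in wt (SD, n = 4 each), a rise of 1.95 ± 0.11 (adjusted p = 1.6e-05), and fell with RUNX1-ERt2 against ERt2 (−0.93 ± 0.16, adjusted p = 0.00380; 0.0591 under the normexp background). Ddit3, the C/EBP-homologous protein that blocks its partners, rose in ko (0.79), as did Dbp (0.46), and Fosl2 fell (−0.38). Nfil3, a repressor of related sites, averaged −0.85 ± 0.32 in ko and 0.18 ± 0.49 in wt, and fell (−1.03 ± 0.22, adjusted p = 0.00985). Fosl2 (−1.02) and Batf3 (−2.14 ± 0.55, adjusted p = 0.0253) fell with RUNX1-ERt2. The call of Batf3 held only without ERt2 replicate 2 (highest 0.137, without ERt2 replicate 1).

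Factors that act on C/EBP genes or proteins were tested for 12 of 13 names, since Rfwd2 is the old symbol of Cop1. In ko 2 rose, Runx1 and Stat3 (0.67), and 1 fell, Calr (−0.68), whose product is known to bind Cebpa mRNA. Of all genes 11.5% rose and 13.8% fell. Trib3, a pseudokinase gene, rose with RUNX1-ERt2. It averaged −0.72 ± 0.96 with RUNX1-ERt2 and −3.06 ± 0.37 with ERt2, a difference of 2.34 ± 0.36 (adjusted p = 0.00202). In ko against wt, Gfi1, a transcriptional repressor gene, differed by −0.84 ± 0.29 (adjusted p = 0.0620), which passed with blocked replicate numbers (adjusted p = 0.0321). Gfi1 did not pass under array-median scaling (0.114), the normexp background (0.136) or without the slide term (0.0754). With RUNX1-ERt2 it fell (−1.45 ± 0.41, adjusted p = 0.0363) and kept that call only without RUNX1-ERt2 replicate 1 (highest 0.214, without RUNX1-ERt2 replicate 2). Spi1, the gene of the myeloid factor PU.1, differed by −0.20 ± 0.26 in ko against wt (adjusted p = 0.606) and by −0.27 ± 0.36 with RUNX1-ERt2 against ERt2 (adjusted p = 0.680). It was higher in ERt2 than in ko by 1.98 ± 0.31 (adjusted p = 0.000679) and in RUNX1-ERt2 than in wt by 1.51 ± 0.31 (adjusted p = 0.00410).

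Inflammatory targets of C/EBPb and C/EBPd were tested for 9 of 14 genes. In ko 2 rose and 2 fell, where 11.5% and 13.8% of all genes did, with a median of −0.18 against −0.05. Socs3, a feedback inhibitor of cytokine signalling, rose by 2.62 ± 0.42 (adjusted p = 0.00275), and Ccl2, a monocyte chemokine gene, rose by 2.27 ± 0.45 (adjusted p = 0.00743), which ended under the normexp background (adjusted p = 0.0847). Il6, an acute-phase cytokine gene, averaged −3.68 ± 0.30 in ko and −1.94 ± 0.32 in wt and fell (−1.74 ± 0.28, adjusted p = 0.00295), and Hp, haptoglobin, fell (−1.23). With RUNX1-ERt2 against ERt2 2 rose, Il6 and Nos2 (0.70), and 1 fell, Hp (−2.20), where 10.2% and 8.87% of all genes did, with a median of −0.93 against −0.00016. Il6 was not well above background on either ERt2 array. It was 25.1-fold higher with RUNX1-ERt2 when the lowest signal well above background on those arrays stood in for ERt2 (fitted adjusted p = 1.5e-05). That fold is not a strict lower bound, and under the normexp background the limma difference was 3.33 (adjusted p = 0.000488).

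Growth genes that C/EBPa is known to oppose were tested for 8 of 8. In ko E2f2 (0.50 ± 0.15, adjusted p = 0.0388) and Cdk6 (0.45 ± 0.11, adjusted p = 0.0155) rose, and E2f1 (−0.41 ± 0.12, adjusted p = 0.0398) fell, with a list median of −0.12 against −0.05 over all genes, of which 11.5% rose and 13.8% fell. E2f2 kept its call only without wt replicate 3 (highest 0.0797, without wt replicate 2), E2f1 only without ko replicate 3 (highest 0.106, without ko replicate 4) and lost it with blocked replicate numbers (0.0739), and Cdk6 lost its call without wt replicate 1 (adjusted p = 0.0538) or ko replicate 4. E2f2 fell with RUNX1-ERt2 against ERt2 (−0.94 ± 0.21, adjusted p = 0.0149), a call kept only without ERt2 replicate 2 (highest 0.0873, without ERt2 replicate 1). The plot of the lists shows each tested gene.

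**Figure D3:**
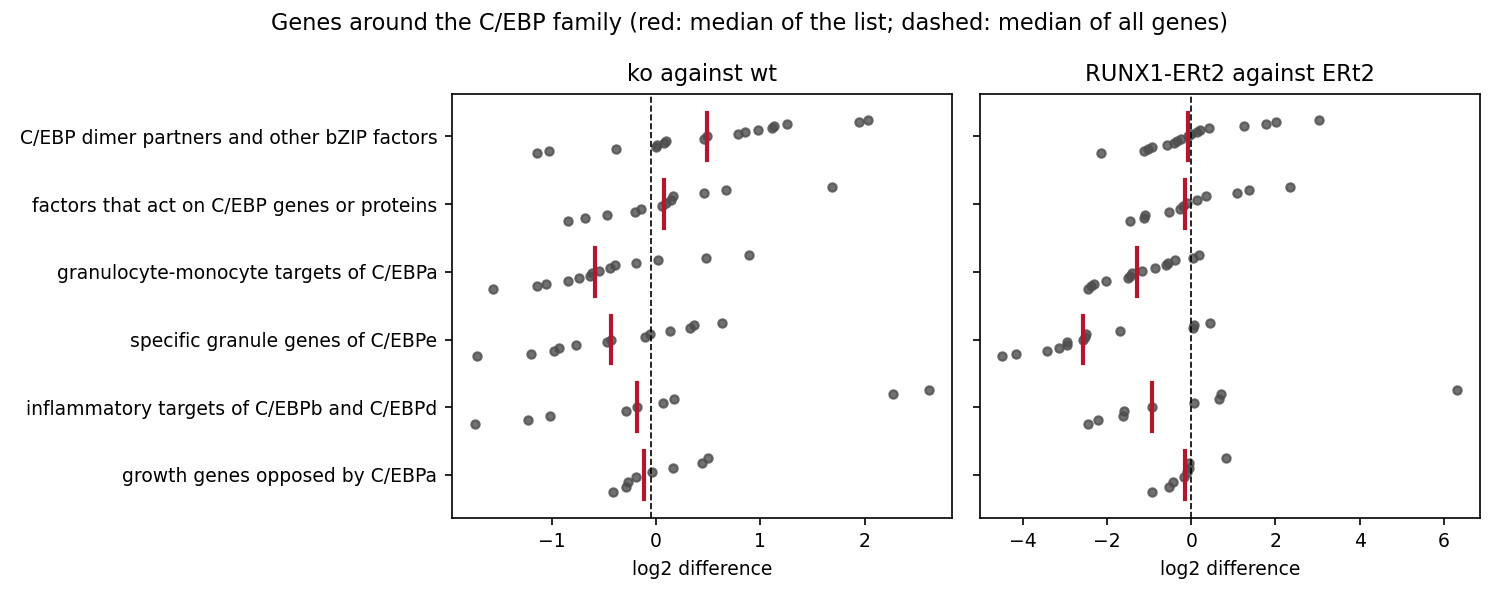
Log2 differences (x axis) of each tested gene of 6 lists around the C/EBP family in ko against wt and in RUNX1-ERt2 against ERt2, with the list median in red and the median of all genes dashed. The specific granule list has a median of −0.43 in the left panel and −2.56 in the right panel, and the point at the far right is the fitted value of Il6, which was not well above background with ERt2.

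**Figure D4:**
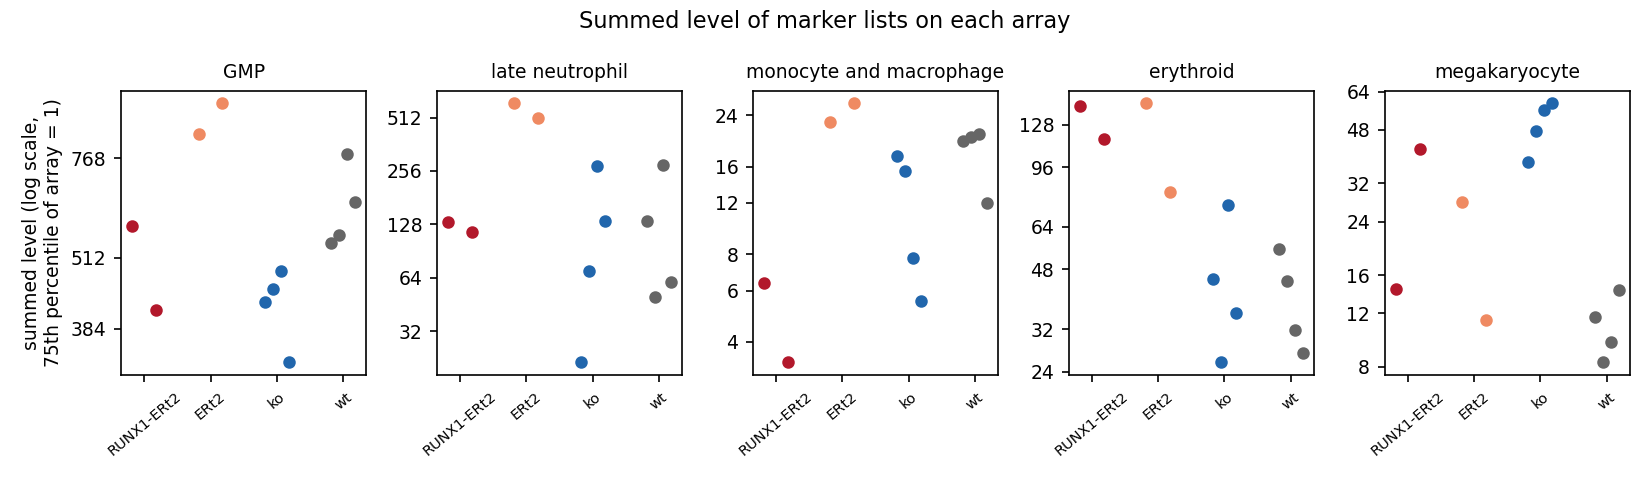
Summed signal of 5 marker lists (y axis, log scale, with the 75th percentile of the array as 1) on each array of the RUNX1-ERt2, ERt2, ko and wt groups (x axis). Late neutrophil markers lie at 117 to 132 with RUNX1-ERt2 and 511 to 614 with ERt2, and megakaryocyte markers at 37.7 to 58.6 in ko and 8.29 to 14.3 in wt.

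For each member the 2 named genes with the closest pattern over the 12 arrays were found among 12156 genes, by the root mean square difference of centred log2 levels. Mboat1 and Racgap1 lay closest to Cebpa, both at 0.173, where Cebpa itself varied by 0.664. The nearest to Cebpb (own variation 0.459) were Litaf at 0.142 and Sh2b3 at 0.166, and to Cebpd (0.477) Pde6d at 0.163 and Fut4 at 0.168. Cebpe (0.887) had Cdkn3 at 0.243 and 3000002C10Rik at 0.276 as its nearest. Cebpg (0.257) had Atm at 0.0753 and Cipc at 0.0823, and Cebpz (1.09) had Gm12770 at 0.129 and Ints3 at 0.154. Mboat1 and Racgap1, chosen for this likeness, differed by −0.80 and −0.81 in ko against wt, and Gm12770 and Ints3 were higher with RUNX1-ERt2 than with ERt2 by 1.14 and 1.21, which describes how they were chosen.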

How the data were processed

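Spot intensities were deposited as Agilent scanner output. Per the file headers they were background-subtracted and detrended, and nothing was normalized between arrays. The software version in those headers is not the 9.1 of Agilent Feature Extraction in the submitters' processing notes. The deposited series matrix holds the same signal as a ratio to the array median (column medians 0.91 to 0.94). Its wt and ko columns matched another replicate of their group, 1 with 3 and 2 with 4, while the other columns matched their own arrays.

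Control spots and outlier spots (129 to 207 per array) were left out, and the 75th percentile of each array was subtracted from log2 of the deposited processed intensity. Probe names were updated through RefSeq accessions or symbols (8054 of 39429 probes kept the file's name), with mm9 coordinates as the files give them. Tests took in each probe for which a group had every array well above background, with the brightest probe for each symbol (17905 genes). Python 3.11.15 and scipy 1.17.1 served for the tables and exact tests. Differences were fitted with limma 3.58.1 in R 4.3.3 over all 12 arrays, with group means and a slide term for wt and ko, 7 residual and 2.11 prior degrees of freedom, and Benjamini-Hochberg adjustment over all genes. The fit was tested on simulated data with 200 changed genes.

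Same-numbered ko and wt arrays deviated together from their group means (correlations of 0.47, 0.46, 0.27 and 0.76), partly because they share a slide. With the slide means removed the correlations were −0.02 on slide 1 and 0.59 on slide 2. The fit reported did not take the numbers as pairs, which would rest on these data and not on the labels. Only the alternative named next did so, for the transplanted arrays too, whose same-numbered deviations correlated at −0.31. A fit with the replicate number as a block, in place of the slide term, was an alternative, as were normexp background correction (offset 50), quantile or median scaling, the series matrix, other filters, every probe on its own, no slide term, single slides, the arrays compared alone and each array left out.

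Named genes are the members, Runx1, Spi1, for each list the 3 largest changes past the threshold in ko against wt or RUNX1-ERt2 against ERt2, and the 2 nearest patterns of each member. Other members of lists called in these 2 comparisons are named with their difference alone. The members and lists were chosen with earlier results of these data known.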

Additional observations from a re-analysis of the deposited data

Results flagged for a closer look

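Cebpb on the wt arrays had a single array apart from the rest: wt replicate 4, at 1.19, lay below the other wt arrays at 1.77, 1.79 and 1.89, and its gap to the nearest of them was 0.833 of the whole range. The same array was also the lowest wt array for Cebpa (1.21), Cebpd (2.36), Cebpe (3.25) and Cebpg (−1.27), and the highest for Cebpz (2.01). The ko and wt groups of the 6 members gave 12 such checks, and chance gives about 1 in 20 for a single check. These checks share arrays and are not independent. The ko against wt difference of Cebpb was −0.01 without wt replicate 4.

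The Cebpz differences in the transplanted and the native cells were unlike in size. RUNX1-ERt2 minus ERt2 exceeded wt minus ko by 1.09 (limma adjusted p = 0.000962). The difference was 1.28 for RUNX1-ERt2 minus ERt2 and 0.19 for wt minus ko, in the same direction, and the native difference did not pass. The excess of 1.09 passed without each of the 12 arrays in turn and under the 9 other settings. Slide and group cannot be told apart for RUNX1-ERt2 and ERt2.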

How the results depend on the processing

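Of the C/EBP counts, that of RUNX1-ERt2 against ERt2 depended most on the processing: the 4 members became 2 under array-median scaling, the series matrix, normexp background correction, no filter for dim probes or a fit of these arrays alone, and 1 without the slide term. Leaving out 1 array gave 1 to 2 members there, 1 to 2 in ko against wt (main 1), 4 to 5 in ERt2 against ko (main 5), 2 to 4 in RUNX1-ERt2 against wt (main 4) and 1 to 3 in the test of RUNX1 presence between transplanted and native cells (main 1). That test called 3 members with probes well above background on all 12 arrays and 2 with the replicate block. Slide 2 alone called 0 of 6 members and 381 genes in ko against wt.

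Over all genes, normexp gave 1975 calls in ko against wt (4537 in the fit reported), 1391 in RUNX1-ERt2 against ERt2 (3418), 6415 in ERt2 against ko (10188), 4776 in RUNX1-ERt2 against wt (8250) and 1250 in the test between settings (3254). A fit of the arrays alone gave 1657 in RUNX1-ERt2 against ERt2, and no filter gave 15476 in ERt2 against ko. Leaving out 1 array gave 2858 to 4835 calls in ko against wt, 2179 to 2428 in RUNX1-ERt2 against ERt2, 7459 to 10012 in ERt2 against ko, 5930 to 8104 in RUNX1-ERt2 against wt and 1881 to 3466 between settings. The causes were not tested. Array-median scaling turned the split of ko against wt calls to 1876 higher and 1397 lower, against 2065 and 2472, that of RUNX1-ERt2 against ERt2 to 1352 and 1468, against 1830 and 1588, that of ERt2 against ko to 6709 and 3745, against 5408 and 4780, and that of RUNX1-ERt2 against wt to 4622 and 3286, against 3926 and 4324. It moved the median of all genes by over 0.1 in the last 2 comparisons, to 0.25 and 0.14, against 0.06 and 0.00443.

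The replicate block gave 3700 genes in ko against wt and 3094 in RUNX1-ERt2 against ERt2, and among members it changed the call of Cebpd in the test between settings only. The transplanted arrays deviated against their numbers (correlation −0.31), and a crossed pairing, chosen after seeing the data, called 3 members and 3696 genes.

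Member differences that changed sign were all uncalled. Cebpg in RUNX1-ERt2 against wt was 0.0596 by array-median scaling and 0.0358 in the series matrix. Cebpa in RUNX1-ERt2 against ERt2 was −0.0117 in the series matrix. Cebpb in ERt2 against ko was −0.0149 with quantile scaling and −0.0716 to 0.173 with 1 array left out. In ko against wt, Cebpd was 0.0585 on slide 1 alone and −0.301 to 0.0477 with 1 array left out, and Cebpb was −0.0458 on slide 2 alone and −0.00795 to 0.231 with 1 array left out. Of the recomputed member differences 468 kept direction and call, 10 gained a call and 39 lost one. The number of arrays, 2 in each transplanted group, limits what could be called.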
